A study of Mus musculus with 5 samples.

Results

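Myoglobin, heme synthesis and iron uptake were followed through 9 genes of mouse tibialis anterior (TA) muscle, taken as the rows of the deposited expression table that carry their symbols, 9 of 17015 genes in all. They were the oxygen-binding heme protein Mb, the heme synthesis enzymes Alas1, Alad, Urod, Cpox, Ppox and Fech, the heme-degrading enzyme Hmox1 and the transferrin receptor Tfrc. The study deleted Nrip1, which encodes the nuclear receptor corepressor RIP140, in skeletal muscle and sequenced total RNA of whole TA muscle from 8-week-old male sedentary mice. Mice of a floxed Nrip1 line on C57BL/6J were bred with C57BL/6JN mice carrying a myogenin-Cre transgene, and both groups came from this cross. The WT control group had 3 libraries from Cre-negative littermates, and the skmNrip1-/- group had 2 libraries from Cre-positive mice. Myogenin drives Cre in the skeletal muscle lineage, so the deletion is not aimed at the vessel, blood, nerve and connective tissue cells that whole muscle also holds. No drug treatment separates the groups, and the labels do not say that each library came from a separate mouse, so p-values measure the spread between libraries, which may be technical.

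Values are FPKM as the authors deposited them, fragments per kilobase of transcript scaled to the library, so levels of different genes can be set beside each other per length. The libraries were already level by the median over genes of each library's ratio to the average library, which was equal in all 5, so rescaling by that median is no further check, and which scaling the authors applied is not given in the sources used here. The absolute depth is unknown. From the steps between low values, the factor dividing the reads of the other libraries was 0.807 to 1.09 times that of WT control replicate 1. Such a factor is the relative depth only if the authors scaled to library totals. Its estimate rested on 55 to 65 of 592 genes. Nrip1, the targeted gene, stood at 4.64, 7.69 and 6.55 FPKM in WT control replicates 1 to 3 and at 25.3 and 22.5 FPKM in the libraries labelled skmNrip1-/-. That is a log2 fold change of 1.94 ± 0.21 (SE) in the direction opposite to the label (limma, adjusted p = 0.0261, and 0.0155 to 0.204 over the 15 alternative settings). The value per gene does not show which exons the reads came from. The deletion removes a single exon, the one that holds the coding sequence, so the level of the deleted exon was not tested here. The study itself checked the deletion in gastrocnemius, by Nrip1 expression and a RIP140 blot, and those results are not restated here. The group is therefore called the libraries labelled skmNrip1-/- throughout.

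Heme is a porphyrin ring holding iron. Its synthesis starts in the mitochondrion, where ALAS1 makes 5-aminolevulinate in the step that limits the pathway outside red cells, runs through cytosolic enzymes including ALAD and UROD, and returns to the mitochondrion, where CPOX, PPOX and finally FECH, which inserts the iron, complete it. Muscle fibers use heme in myoglobin, most abundant in oxidative fibers, and in the cytochromes of the respiratory chain. Iron enters on transferrin through TFRC, and the mRNAs for TFRC, ferritin and ferroportin carry stem loops, iron-responsive elements, that bind iron regulatory proteins when iron is scarce. Binding in the 3′ UTR protects the Tfrc mRNA, and binding in a 5′ UTR blocks translation.

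Of the 9 members, Tfrc is the one whose mRNA carries such elements, and they are shown because its level was the least even between the libraries labelled skmNrip1-/-. The letters searched were a C, 5 bases, a loop CAGTGN whose last base is A, C or T, and 5 bases pairing with the first 5, G-T pairs allowed, on the transcript strand. Capitals mark the 6-base loop. All 4 matches in Tfrc lay in exon 19 of Tfrc-201, in the 3′ UTR (GRCm38, plus strand).
Tfrc chr16:32631222-32631244: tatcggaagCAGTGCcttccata
Tfrc chr16:32631601-32631623: tatcgggagCAGTGTcttccata
Tfrc chr16:32631666-32631688: tatcggagaCAGTGAtctccata
Tfrc chr16:32631713-32631735: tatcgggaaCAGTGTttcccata
Among the iron and heme synthesis genes, 4 others had 1 match each, and all 4 were in the 5′ UTR. They were Alas2, the red cell form of the first heme enzyme, the ferritin subunits Fth1 and Ftl1, and Slc40a1, which encodes the iron exporter ferroportin.
Alas2 chrX:150547461-150547483, plus strand: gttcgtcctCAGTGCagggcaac
Fth1 chr19:9982735-9982757, plus strand: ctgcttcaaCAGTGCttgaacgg
Ftl1 chr7:45459782-45459804, minus strand: ttgcttcaaCAGTGTttgaacgg
Slc40a1 chr1:45925468-45925490, minus strand: cttcagctaCAGTGTtagctaag
The other 8 members had 0 matches in the longest protein-coding transcript, the only one searched for the listed genes. Over every protein-coding transcript of each gene, a wider search, 222 of 21877 genes (1.01%) had at least 1. A match is a description of the letters and not evidence of binding.

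Mb and Alas1 had the largest 2 log2 fold changes of the members, so sequence near their starts is shown. RefSeq promoter windows, 250 bases before to 50 after a start (GRCm38.p6), were found for 7 of the 9 members, all but Fech and Hmox1, as 12 windows. The window upstream of the second Mb start is chr15:77022788-77023037 on the minus strand, with 57.2% G and C and 0 bases in an annotated Mb exon. Capitals mark, from 5′ to 3′, ATTGG, which is a CCAAT box on the other strand, the palindromic E-box CAGCTG, the type bound by myogenic factors, and TGACCT, the nuclear receptor half-site AGGTCA on the other strand.
Mb start 2: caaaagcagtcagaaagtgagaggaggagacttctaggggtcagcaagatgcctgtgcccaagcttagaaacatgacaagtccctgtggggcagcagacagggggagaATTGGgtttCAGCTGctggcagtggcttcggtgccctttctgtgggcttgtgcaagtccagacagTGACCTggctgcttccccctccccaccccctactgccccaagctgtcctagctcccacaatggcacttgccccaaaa
In all 32851 promoter windows, searched on both strands, CCAAT was held by 37.4%, CAGCTG by 16.3% and AGGTCA by 16.3%. Alas1 had a double NRF1 element, GCGCNTGCG on both strands with the matches overlapping, and a MEF2 site, whose degenerate consensus matched on both strands, upstream of its second start (minus strand), in stretches that are exonic in longer Alas1 transcripts.
Alas1 NRF1 element, chr9:106247909-106247932: acccaagGCGCATGCGCggcggtc
Alas1 MEF2 site, chr9:106247883-106247906: tccggctCTATATTTAGggccgcc
The NRF1 element was in 6.31% and the MEF2 site in 0.557% of windows. The ERR element TNAAGGTCA, which contains the half-site, was in 1.28% of windows, TATAAA in 13.6% and the CRE TGACGTCA in 1.79%, and 0 of the members' windows held any of these 3. GGGCGG was in 35.7% of windows and ACGTG, the hypoxia element, in 19.6%. Alad, Urod and Tfrc each had a window holding both GGGCGG and ACGTG, and a Tfrc window also held an NRF1 element.

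Mb had the highest level of the members and the highest log2 fold change. Myoglobin stores oxygen and eases its diffusion in muscle fibers. Its gene (chr15:77015487-77050670, minus strand, 6 annotated transcripts) stood at 4522, 4329 and 5157 FPKM in WT control replicates 1 to 3 and at 7764 and 7664 FPKM in the libraries labelled skmNrip1-/-. Both libraries labelled skmNrip1-/- were above every WT control library, and their mean of 7714 ± 70.3 FPKM (SD, n = 2) was 1.65 times the WT control mean of 4669 ± 433 (SD, n = 3). The log2 fold change was 0.73 ± 0.16 (SE). limma gave an unadjusted p of 0.00273 and an adjusted p of 0.160 over the 12148 genes tested, so Mb did not pass the threshold of an adjusted p of 0.05 with a fold change of 1.2. By unadjusted p it had rank 207 of the 12148, and by WT control level rank 30. An exact permutation test over the libraries, with 10 possible assignments, gave a 2-sided p of 0.2, the smallest this design allows. Mb exons overlap those of Apol6 on the opposite strand, and whether reads were assigned by strand is not given in the sources used here. Apol6 stood at 23.4 to 35.6 FPKM in the WT control and at 32.2 to 33.0 FPKM in the libraries labelled skmNrip1-/-, far under the level of Mb.

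None of the 9 members passed the threshold in either direction, against 45 of 12148 genes called higher (0.37%) and 10 called lower (0.0823%). When the libraries were rescaled to one common sum (TPM), 29 genes were called higher and 59 lower, and again 0 members. At an unadjusted p of 0.05 or less, 3 members were higher (Mb, Alas1 and Alad) and 0 were lower, where 6.57% and 5.33% of all tested genes were. As deposited, both libraries labelled skmNrip1-/- lay above every WT control library in 4 members (Mb, Alas1, Alad and Fech). In 1 (Hmox1) both lay below, where 15.8% and 14.4% of all tested genes lay above and below. Overlap was not counted under TPM, where the log2 fold changes of Alad and Fech were 0.01 and -0.08. All 9 members passed the filter on low values, a mean of at least 0.5 FPKM. Their median log2 fold change was 0.22, beside -0.00 for all tested genes.

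**Figure D1:**
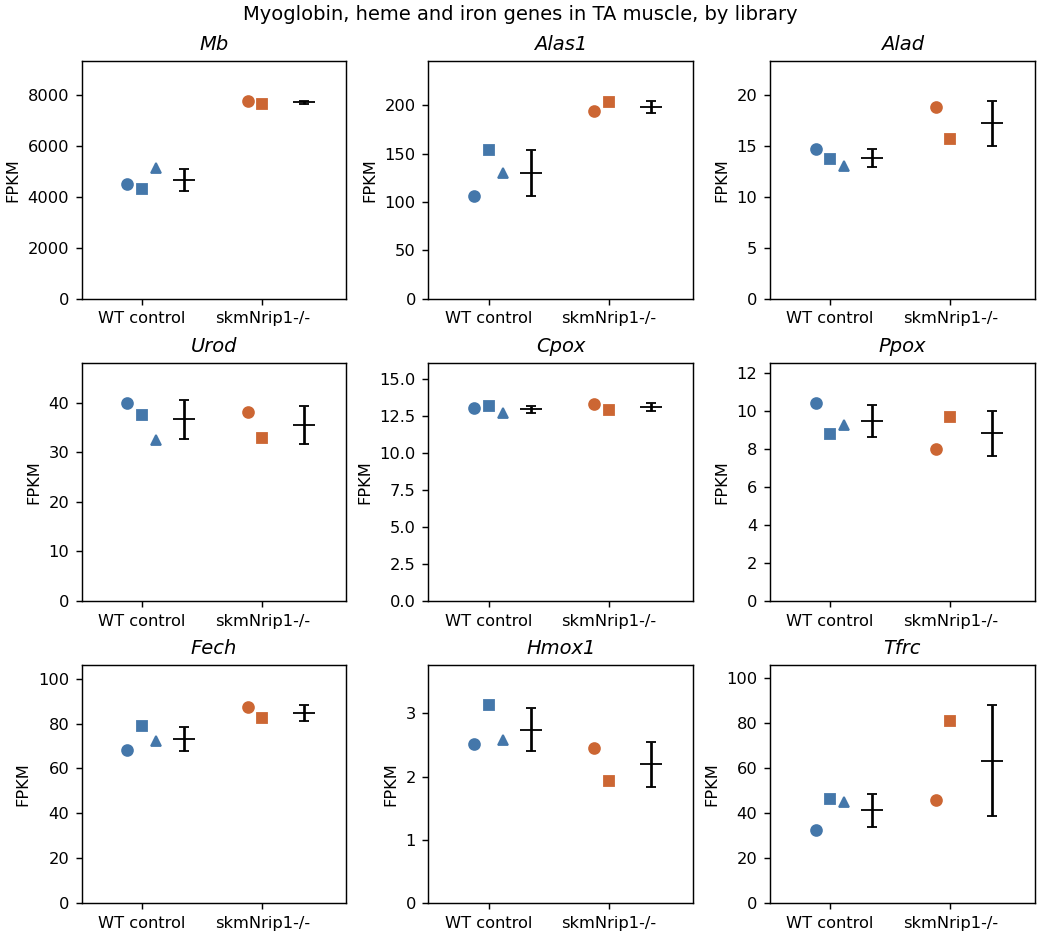
FPKM of each member gene (y axis, starting at 0) in each library, circles, squares and triangles being replicates 1, 2 and 3, by the group its label gives (x axis), with the mean and SD of the group as a bar beside the points. As deposited, Mb, Alas1, Alad and Fech (which changed sign under TPM) were above every WT control library in both libraries labelled skmNrip1-/-, Hmox1 was below, and the groups overlapped for Urod, Cpox, Ppox and Tfrc.

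Alas1 came closest to Mb among the heme synthesis enzymes. The gene for the first and limiting enzyme (chr9:106233455-106248654, minus strand, 13 annotated transcripts) stood at 106, 153 and 130 FPKM in the WT control and at 194 and 203 FPKM in the libraries labelled skmNrip1-/-. The groups did not overlap, although the WT control libraries were spread widely, and the means of 130 ± 23.5 (SD, n = 3) and 198 ± 6.13 (SD, n = 2) differed 1.53 times. The log2 fold change was 0.63 ± 0.16 (SE), and the unadjusted p of 0.00716 became an adjusted p of 0.234 (limma). An antisense gene overlaps Alas1 exons, so reads of the shared stretch cannot be told apart without strand. The antisense gene is not among the deposited genes under its symbol, so its level is unknown.

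Alad, which joins a pair of aminolevulinate molecules into porphobilinogen, was much less abundant. Its gene (chr4:62509169-62519918, minus strand) stood at 14.7, 13.7 and 13.0 FPKM in the WT control and at 18.8 and 15.7 FPKM in the libraries labelled skmNrip1-/-, with replicate 1 of the latter well above replicate 2. The log2 fold change was 0.31 ± 0.12 (SE), with an unadjusted p of 0.0427 and an adjusted p of 0.397 (limma). Without replicate 1 labelled skmNrip1-/- it was 0.18, with an unadjusted p of 0.315 (limma). Fech, the last enzyme, stood at 68.2, 78.8 and 72.1 FPKM in the WT control and at 87.3 and 82.4 FPKM in the libraries labelled skmNrip1-/-. The nearest libraries of the groups were only a few FPKM apart, and the log2 fold change of 0.22 ± 0.11 (SE) had an unadjusted p of 0.0864 and an adjusted p of 0.498 (limma).

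The enzymes between these steps had overlapping groups. Urod, which trims the side chains of the ring (chr4:116989965-116994413, minus strand), stood at 39.9, 37.5 and 32.4 FPKM against 38.2 and 32.8 FPKM, a log2 fold change of -0.04 ± 0.13 (SE). Cpox, coproporphyrinogen oxidase (chr16:58670292-58717636, plus strand, exons overlapping those of Gpr15), was the most even member, at 13.0, 13.2 and 12.7 FPKM against 13.3 and 12.9 FPKM, with a log2 fold change of 0.02 ± 0.10 (SE). Ppox, which oxidizes protoporphyrinogen (chr1:171275990-171281186, minus strand), stood at 10.4, 8.78 and 9.25 FPKM against 7.99 and 9.66 FPKM, a log2 fold change of -0.11 ± 0.14 (SE). Ppox exons overlap those of B4galt3 on the opposite strand, which was about as abundant, at 5.46 to 8.14 FPKM over the 5 libraries. The adjusted p-values were 0.931 for Urod, 0.969 for Cpox and 0.826 for Ppox (limma).

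The whole heme synthesis list, which goes beyond the members, had 9 tested genes, of which 7 had a log2 fold change above 0, or 3 under the TPM scaling, and 0 passed the threshold. At an unadjusted p of 0.05 or less, 2 were higher, Alas1 and Alad, and 0 were lower. Under TPM, 0 were higher and 2 lower at that p. The median log2 fold change was 0.20 beside -0.00 for all genes, or -0.095 beside -0.29 under TPM. Alas2 was far less abundant than Alas1, at 1.30 to 2.30 FPKM in the WT control and at 2.49 and 2.29 FPKM in the libraries labelled skmNrip1-/-. Uros, uroporphyrinogen III synthase, which acts before Urod, had a log2 fold change of 0.20 and overlapping groups. Summed over the list, the level as deposited was 279 to 329 FPKM in the WT control and 381 to 389 FPKM in the libraries labelled skmNrip1-/-. The FPKM of all genes also summed higher in the libraries labelled skmNrip1-/-, so this sum depends on the scaling. It was not taken under TPM.

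**Figure D2:**
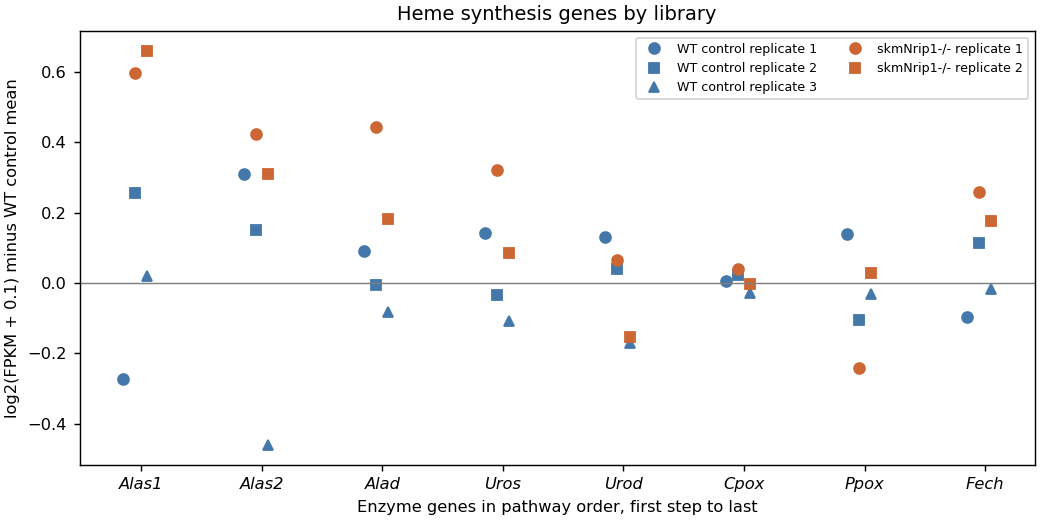
Difference of each library's log2(FPKM + 0.1) from the WT control mean (y axis, log2 units) for heme synthesis genes in pathway order (x axis), blue for the WT control and orange for the libraries labelled skmNrip1-/-, with circles, squares and triangles for replicates 1, 2 and 3. From FPKM as deposited, Alas1 at the first step stood farthest above the WT control mean. Alad and Fech were above every WT control library, and Uros, Urod, Cpox and Ppox overlapped.

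Ratios within a library do not depend on how libraries are scaled. The ratios given here were chosen after the values were seen. Alas1 made up 38.0%, 46.6% and 44.8% of the summed FPKM of the 9 heme synthesis genes in the WT control and 49.9% and 53.2% in the libraries labelled skmNrip1-/-, without overlap, with means of 43.1% ± 4.50 (SD, n = 3) and 51.6% ± 2.32 (SD, n = 2) (exact permutation test, 2-sided p = 0.2, the smallest possible). Mb stood at 20.6%, 26.4% and 26.4% of the FPKM of Acta1, skeletal actin, in the WT control and at 52.6% and 53.3% in the libraries labelled skmNrip1-/-, again without overlap (exact permutation test, 2-sided p = 0.2). Acta1 itself had a log2 fold change of -0.40, so this ratio moves with both genes.

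Hmox1 was the least abundant member. Heme oxygenase 1 opens the heme ring and frees its iron, and in many tissues macrophages that take up red cells express it. The gene (chr8:75093621-75100589, plus strand) stood at 2.51, 3.14 and 2.59 FPKM in the WT control and at 2.45 and 1.94 FPKM in the libraries labelled skmNrip1-/-. The groups did not overlap, but replicate 1 labelled skmNrip1-/- lay just under WT control replicate 1, and the log2 fold change of -0.31 ± 0.17 (SE) had an unadjusted p of 0.118 and an adjusted p of 0.557 (limma). Without replicate 2 labelled skmNrip1-/- it was -0.15. Macrophage markers, 8 of 9 tested, had overlapping groups in all 8, with summed levels of 22.1 to 42.5 FPKM in the WT control and 26.3 to 34.7 FPKM in the libraries labelled skmNrip1-/-. Their part in the Hmox1 value was not tested. In whole muscle, fewer cells of a type and less RNA per cell cannot be told apart.

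Tfrc differed more within a group than between the groups. The gene for the receptor that brings transferrin-bound iron into cells (chr16:32608920-32632794, plus strand, 7 annotated transcripts) stood at 32.6, 46.2 and 44.7 FPKM in the WT control and at 45.8 and 80.9 FPKM in the libraries labelled skmNrip1-/-. Replicate 1 of the latter lay among the WT control libraries, and replicate 2 was above every other library. The log2 fold change of 0.58 ± 0.26 (SE) had an unadjusted p of 0.0668 and an adjusted p of 0.463 (limma), and it was 0.17 without replicate 2 labelled skmNrip1-/- and 0.99 without replicate 1.

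The iron genes as a list had a median near that of the rest of the transcriptome. Of 21 genes for iron uptake, storage and export in the table, Tfrc among them, 19 were tested and 0 passed the threshold. Among those tested, 12 had a log2 fold change above 0 (4 under TPM), and the median was 0.06 (-0.23 under TPM). At an unadjusted p of 0.05 or less, 2 were higher and 0 lower, or 0 higher and 7 lower under TPM. Slc39a14, a zinc and iron importer, had a log2 fold change of 0.36 (unadjusted p = 0.0295, limma). Slc40a1, which carries a 5′ UTR stem loop shown above, stood at 11.6, 17.1 and 9.96 FPKM in the WT control and at 19.0 and 18.1 FPKM in the libraries labelled skmNrip1-/-, a log2 fold change of 0.56 (unadjusted p = 0.0428, limma). The lowest log2 fold change was -0.26, for Hjv, hemojuvelin, and the highest was that of Tfrc.

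The ferritin mRNAs, which carry the other stem loops shown, had overlapping groups. Fth1, the heavy subunit, stood at 1614, 1185 and 1329 FPKM against 1293 and 1206 FPKM, and Ftl1, the light subunit, at 160, 136 and 152 FPKM against 138 and 117 FPKM. The log2 fold changes were -0.13 for Fth1 and -0.23 for Ftl1. Both ferritin genes have processed pseudogenes that can share reads with them, so their levels are uncertain. The genes of the iron regulatory proteins had log2 fold changes of 0.16 for Aco1, with overlap, and 0.32 for Ireb2, without overlap (adjusted p = 0.463, limma). RNA levels do not show the translation that a 5′ UTR stem loop controls.

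Heme breakdown and transport genes pointed both ways. Of 15 tested, 7 had a log2 fold change above 0 (2 under TPM), 0 passed the threshold and the median was -0.02 (-0.32 under TPM). At an unadjusted p of 0.05 or less, 1 gene was higher and 0 lower, or 0 higher and 7 lower under TPM. The 1 gene, as deposited, was Slc25a39, a mitochondrial carrier, with a log2 fold change of 0.33. It stood at 30.3, 26.9 and 26.9 FPKM against 36.4 and 33.9 FPKM. The range ran from -0.35 for Blvrb, a biliverdin reductase, to 0.34 for Hebp1, a heme-binding protein, and without replicate 2 labelled skmNrip1-/- these were -0.014 for Blvrb and 0.079 for Hebp1.

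Genes for heme-containing respiratory chain and peroxide enzymes were also described, in a list with Cox10 and other genes whose products modify or attach heme. All 10 genes of the list had a log2 fold change above 0, with a median of 0.35 and 0 past the threshold. As deposited, all 10 were also higher without overlap between the groups, where 15.8% of all tested genes were. This separation depends on the scaling, and overlap was not counted under TPM. Under TPM, 5 of the 10 were above 0 with a median of 0.06. Relative to the median of all genes, the list's median was 0.36 higher as deposited and 0.35 higher under TPM. At an unadjusted p of 0.05 or less, 4 were higher (1 under TPM), where 6.57% of all tested genes were as deposited. Catalase, Cat, was the highest of the list, at 34.1, 44.7 and 36.0 FPKM against 63.1 and 66.9 FPKM, a log2 fold change of 0.77 (adjusted p = 0.110, limma, and 0.0469, past the threshold, without WT control replicate 2). The others were the cytochrome c1 gene Cyc1 at 0.27, the complex II gene Sdhd at 0.42 and Cox10, which makes heme a precursor, at 0.42, and Sdhc was lowest at 0.13. For iron-sulfur cluster assembly, the other mitochondrial use of iron, 12 of 16 tested genes were above 0 with a median of 0.12, or 4 of 16 with a median of -0.18 under TPM. None passed the threshold. At an unadjusted p of 0.05 or less, 3 were higher, Iba57 at 0.47, Isca1 at 0.40 and the chaperone Hspa9 at 0.40, and 0 were under TPM. The lowest was Fdx1l at -0.14.

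**Figure D3:**
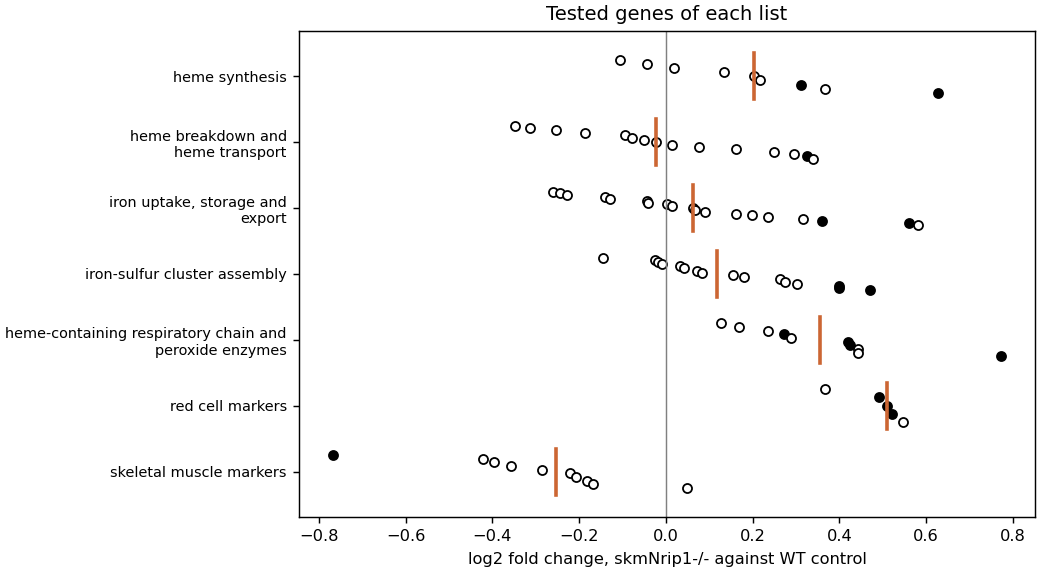
Fitted log2 fold change of the libraries labelled skmNrip1-/- against the WT control (x axis) for each tested gene of 7 lists (y axis), filled points having an unadjusted p of 0.05 or less and orange bars marking the median of the list. From FPKM as deposited, medians ran from -0.25 for skeletal muscle markers to 0.20 for heme synthesis and 0.51 for red cell markers. The list of heme-containing enzymes, which also holds genes that modify or attach heme, had 0.35. Under TPM the heme synthesis median was -0.095.

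Red cell transcripts also stood higher in the libraries labelled skmNrip1-/-, and red cells hold heme enzymes and TFRC while they mature. All 5 tested genes of 12 red cell markers had a log2 fold change above 0, with a median of 0.51 (0.21 under TPM). Of these, 4 were higher without overlap between the groups as deposited, where 15.8% of all tested genes were. Overlap was not counted under TPM. None passed the threshold. At an unadjusted p of 0.05 or less, 3 were higher (0 under TPM), where 6.57% of all tested genes were as deposited. Summed levels as deposited were 511 to 764 FPKM in the WT control and 827 to 996 FPKM in the libraries labelled skmNrip1-/-. These sums depend on the scaling and were not taken under TPM. Hba-a2, the most abundant, stood at 301, 253 and 208 FPKM against 394 and 330 FPKM, a log2 fold change of 0.52 (unadjusted p = 0.0235, limma). Hba-a1 had 0.49, Hbb-bs 0.51, Hbb-bt 0.55 and Alas2 0.37, and without WT control replicate 3 these were 0.26 for Hbb-bt and 0.14 for Alas2. The markers of maturing red cells Slc4a1 and Klf1 were under 0.1 FPKM in all 5 libraries, with Klf1 listed at 0 in 1. Copies of the alpha and beta globin genes are nearly alike, so the split between copies is uncertain. Mb made up 85.5% to 90.9% of the summed FPKM of the 6 tested globins in the WT control and 88.6% and 90.2% in the libraries labelled skmNrip1-/-, with overlap. The part of red cell RNA in the values of the members was not tested. Cygb, cytoglobin, was the globin with the lowest log2 fold change, -0.19.

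The TA muscle was recognizable by its markers in every library. The 10 skeletal muscle markers summed to 99468 to 141550 FPKM in the WT control and to 91694 to 96304 FPKM in the libraries labelled skmNrip1-/-, with a median log2 fold change of -0.25, 1 gene above 0 (Myh1, 0.05) and Actn3, of fast fibers, lowest at -0.77 (unadjusted p = 0.00305 and adjusted p = 0.168, limma, and 0.0213 under TPM scaling). Slow and oxidative fiber markers, 8 tested, had a median of -0.00, with 4 above 0. Myl2, a slow myosin light chain, stood at 2.03, 1.85 and 9.68 FPKM against 42.1 and 33.6 FPKM, a log2 fold change of 3.46 (adjusted p = 0.127, limma, and 0.00446, past the threshold, without WT control replicate 3), and Myl3, the other slow light chain, at 89.6, 124 and 285 FPKM against 54.1 and 71.3 FPKM, a log2 fold change of -1.24 (adjusted p = 0.359, limma), or -0.76 without WT control replicate 3. WT control replicate 3 had the highest Myl2 and Myl3 of its group, and also the highest Mb. Endothelial markers had a median of -0.12 (Cldn5 -0.32 to Kdr 0.07) and adipocyte markers 0.07 (Plin1 -0.36 to Cfd 0.15). Nerve markers had -0.22 (Mbp highest, -0.05) and macrophage markers -0.02 (Cd14 -0.44 to Mrc1 0.39). Each of these lists had 0 genes at an unadjusted p of 0.05 or less as deposited. Under TPM, 6 endothelial and 3 nerve markers were lower at that p, and 0 adipocyte or macrophage markers.

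The members' median moved more with a scaling to TPM than under any other alternative run. The FPKM summed to 969144 to 1144714 over the WT control libraries and to 1286254 to 1288038 over the libraries labelled skmNrip1-/-, and genes encoded in mitochondrial DNA took 45.4% to 50.7% and 58.6% to 60.9% of those sums. The TPM scaling moved the median over the 12148 tested genes from -0.00 to -0.29 on the log2 scale. Under TPM the members' median was -0.08, which is 0.21 above that of all genes, close to the 0.22 as deposited. Mb stayed above 0 at 0.43, Alas1 at 0.33 and Tfrc at 0.28, and Alad at 0.01 was near it. Fech at -0.08 and Cpox at -0.28 changed sign, and Urod at -0.34, Ppox at -0.40 and Hmox1 at -0.60 were the 3 members below 0 with an unadjusted p of 0.05 or less. Rescaling over genes outside mitochondrial DNA gave 0.80 for Mb and 0.70 for Alas1.

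**Figure D4:**
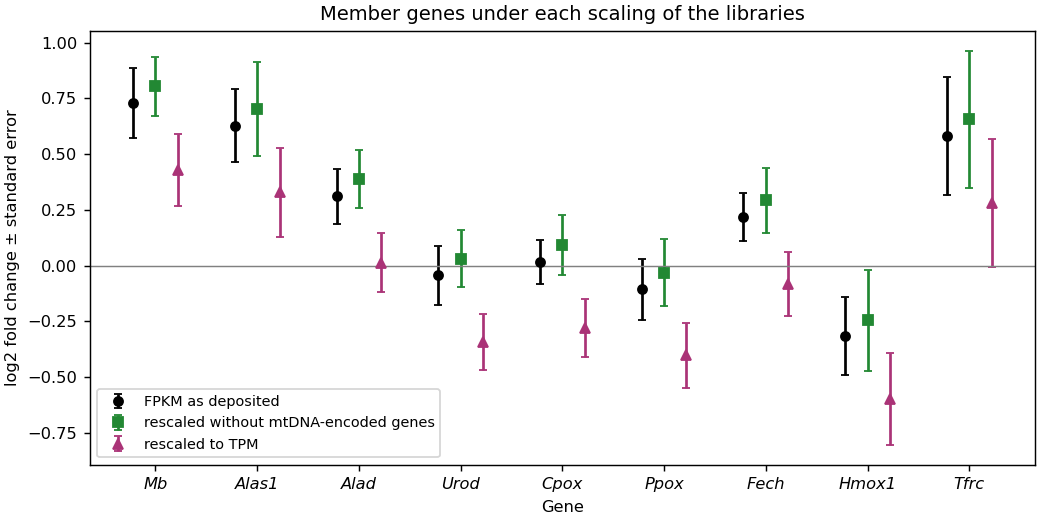
Log2 fold change of each member (y axis, bars are ± SE from limma) by gene (x axis) from FPKM as deposited (black), after rescaling to a common sum without the genes of mitochondrial DNA (green) and after rescaling to TPM (purple). Mb, Alas1 and Tfrc were above 0 under all 3, and Fech, at 0.22 as deposited and -0.08 under TPM, changed sign.

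The pattern of Mb over the 5 libraries was set beside that of 12139 other tested genes, by the root mean square difference of log2(FPKM + 0.1) centred on each gene's mean, a description in which all points share the libraries and their scaling. The 5 nearest genes were Cox11 at 0.0513, Twf2 at 0.0537, Tmem116 at 0.0693, Cnga3 at 0.0806 and Gadd45b at 0.0823. Cox11 stood at 25.1, 24.7 and 27.0 FPKM in the WT control and at 40.7 and 40.5 FPKM in the libraries labelled skmNrip1-/-. Of these 5, Twf2 passed the threshold (log2 fold change 0.78, limma, adjusted p = 0.0414, and 0.0690 to 0.380 when any 1 library was left out). Among the members, the nearest to Mb were Alas1 at 0.208, Alad at 0.253 and Fech at 0.280, and the farthest was Hmox1 at 0.547. Alas1 had rank 287 of the tested genes in this order and Hmox1 rank 10409.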

How the data were processed

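RNA of whole TA muscle was sequenced on Illumina HiSeq in 150-base read pairs after NEBNext Ultra library preparation. Per the labels and the study's methods, the authors quantified reads with Salmon 1.10.2 on mm10 and compared groups with DESeq2 1.44.0. They deposited FPKM values per gene and library. How FPKM was derived and the annotation release are not given in the sources used here. The deposited table also holds columns of the authors' own comparison, log2 fold changes and adjusted p-values, which were not used.

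FPKM was tested on log2(FPKM + 0.1), which understates changes of low genes, with limma 3.58.1 (R 4.3.3; lmFit, eBayes with trend) over the 12148 genes whose mean FPKM reached 0.5, with Benjamini-Hochberg adjustment. Calls needed both an adjusted p no higher than 0.05 and a difference of 1.2 times or more. Single genes also had an exact permutation test over libraries (scipy 1.17.1).

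The members and gene lists were chosen with earlier results of these data known. The genes named are Nrip1, the members, in each list those called, those with an unadjusted p of 0.05 or less and the highest and lowest log2 fold change, and the 5 nearest to Mb. Fth1, Ftl1, Aco1, Ireb2, Uros, Acta1, Hbb-bt, Slc4a1 and Klf1 were named beyond this rule for their role, and some genes are not reported here. Coordinates and stem loops are from GRCm38 with GENCODE M21, the assembly of mm10, and promoter sequences from RefSeq, GRCm38.p6. Of the 17015 gene IDs, 16996 were in that annotation. Alternatives tried were other pseudocounts, filters and scalings, no trend, a stricter threshold, a replicate block and leaving out each library. A count model was not run, since FPKM is not a count.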

Additional observations from a re-analysis of the deposited data

How the results depend on the processing

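No member was called under any alternative run. Of 135 member values, 128 kept their direction and their side of the threshold, and 7 changed direction. The 45 genes called higher became 29 under TPM, 22 without the trend, 18 with the replicate block (in which WT control replicate 3 has no partner and adds nothing to the contrast, and without that library alone it was 17), 14 at an adjusted p of 0.01, and 6 (without replicate 2 labelled skmNrip1-/-) to 51 (without WT control replicate 2) when 1 library was left out. The 10 called lower became 59, 3, 4 and 3 in the same order, and 2 (without WT control replicate 3) to 15. The members' median of 0.22 became -0.082 under TPM and 0.29 without genes of mitochondrial DNA, and 0.17 to 0.27 with 1 library left out. Under TPM, 1 member was higher and 3 lower at an unadjusted p of 0.05 or less.

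Among the genes named in the text, the log2 fold changes that changed direction were, under TPM, Cpox -0.28, Uros -0.095, Aco1 -0.13, Fech -0.082, Cyc1 -0.028, Sdhc -0.17, Kdr -0.22, Cfd -0.15 and Myh1 -0.25. Without genes of mitochondrial DNA they were Urod 0.032 and Mbp 0.026, and with the replicate block Kdr -0.094. With 1 library left out, Cpox ran from -0.0031 to 0.039, Urod from -0.15 to 0.066, Ppox from -0.24 to 0.029, Fdx1l from -0.37 to 0.037, Myh1 from -0.11 to 0.16, Cfd from -0.11 to 0.31, Kdr from -0.094 to 0.32 and Mbp from -0.44 to 0.35. The cause was not tested. Mb ran from 0.43 (TPM) to 0.80, with adjusted p-values of 0.0699 to 0.733, and Alas1 from 0.33 to 0.75, with 0.117 to 0.743 (limma). Nrip1 kept its direction, and its adjusted p was 0.0769 without the trend, 0.128 with the replicate block, and 0.142 to 0.204 without WT control replicate 3 or either library labelled skmNrip1-/-.

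The groups share replicate numbers 1 and 2, and libraries with the same number deviated together only weakly, with a correlation across genes of 0.0647 for number 1 and 0.0952 for number 2, so the numbers were not taken as pairs. The block changed no member's call. With 2 libraries in a group, an exact test cannot give a 2-sided p below 0.2, and the absolute depth is unknown.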
